A study of Mus musculus with 85 samples.

Results

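Proteasome subunit genes were examined across 84 single cells from 5 populations of the mouse embryo, which were sorted along the path from endothelium to blood stem cells and measured on Affymetrix mouse arrays. A gene was included when its symbol began with Psma, Psmb, Psmc, Psmd or Psme followed by a digit, leaving out the immunoproteasome subunits Psmb8, Psmb9 and Psmb10, and each gene was read on its brightest probe set. The rule took 41 of the 18193 genes with a probe set of their own. Psmc3ip and Psme3ip1 meet it by their symbols but do not encode subunits, so 39 of the 41 genes encode subunits, assembly chaperones or activators of the proteasome. Psme2 was not among them, because its probe set is annotated with more than 1 symbol. All 41 symbols were found in RefSeq. A value counted as above background when the log2 value was over 5, and 40 of the 41 genes were above it in at least 3 cells. The 41st, Psmb11, the catalytic subunit of the thymus-specific proteasome, was above background in 0 of 84 cells.

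The 7 endothelial cells (EC) and the 7 hemogenic endothelial cells (HEC) came from the caudal part of E10.5 embryos that carried the eR1-GFP reporter. Both were CD31+ and negative for Ter119, CD45 and CD41, and they differed in the reporter: EC were eR1-GFP- and HEC were eR1-GFP+. Cells of the intra-aortic clusters, from wild type embryos, were gated as c-Kit+CD31+CD45+SSEA1-, 28 of them from the caudal part at E10.5 (E10 cluster) and 16 from the aorta-gonad-mesonephros region at E12.5 (E12 cluster). Fetal liver hematopoietic stem cells (FL HSC) came from wild type embryos at E14.5, and were gated as Lin-, c-Kit+, Sca-1+ and Mac-1+ cells that were CD150+ and CD48-. There were 27 FL HSC arrays. Cells 20 and 21 of these had nearly the same values (r = 0.991, where no other pair of arrays passed 0.859), so their mean was used as a single cell and 26 were left. The labels name no animal, litter or sort day, and each population therefore counted as 1 sample. No test between populations was made, SDs are over cells, and the number of arrays limits the precision of every mean. The EC and HEC embryos carried a reporter that the other embryos did not, and the populations also differed in stage, tissue and gate, so these cannot be told apart.

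The proteasome is the protease that degrades proteins marked with ubiquitin chains. Its core particle is a barrel of alpha rings, which gate the channel, around beta rings, which hold the catalytic sites. A regulatory particle caps the barrel: its base carries a ring of ATPases that unfold the substrate, and its lid removes ubiquitin. Other caps, the PA28 complexes and PA200, open the channel without using ATP, and in blood cells and cells exposed to interferon the catalytic subunits can be replaced by the immunoproteasome subunits. Hematopoietic stem cells are known for a low rate of protein synthesis, which makes the genes of protein turnover of interest in them.

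The arrays differed in how much they detected, and this moved with the populations. The number of probe sets above background was 5866 ± 1449 (SD) in EC, 7674 ± 763 in HEC, 9900 ± 897 in the E10 cluster, 7777 ± 1754 in the E12 cluster and 6511 ± 884 in FL HSC. Cdh5 and Ptprc followed the gates in most cells. The endothelial cadherin gene Cdh5 was detected in 6 of 7 EC and all 7 HEC. Ptprc, which encodes CD45, was detected in no EC or HEC. It was detected in 26 of 28 E10 cluster cells, 15 of 16 E12 cluster cells and 22 of 26 FL HSC. Other markers followed the gates less. Runx1, from the hematopoietic list, was detected in 0 of 7 HEC and 4 of 26 FL HSC. Pecam1, which encodes CD31, was detected in 20 of 28 E10 cluster cells and 11 of 16 E12 cluster cells. Esam, from the endothelial list, was detected in 24 of 26 FL HSC. 6 cells went against their gate: EC cell 3 had germ cell genes (Dppa3 at 14.59, Cdh5 at 2.32), E12 cluster cells 3, 6 and 10 had the macrophage gene C1qb between 15.59 and 15.88, and FL HSC cells 5 and 7 had the sinusoidal endothelial gene Lyve1 at 15.05 and 14.73 with Ptprc at 2.34 and 2.33. In E12 cluster cells 3, 6 and 10 Kit, the gene of c-Kit in the gate, was below background at 3.53, 4.06 and 2.45. Ptprc was detected in these cells, at 10.44, 12.95 and 12.11. The 6 cells were kept, and results are also given without them. Other cells had genes of a further cell type beside those of their gate. The mean of 4 erythroid genes was between 6.48 and 10.16 in E10 cluster cells 3, 8, 13, 15 and 16. That of 10 endothelial genes was 8.97 in E10 cluster cell 17. The mean of 2 hepatocyte genes, Afp and Apoa2, was 6.79 to 7.15 in FL HSC cells 1 and 4 and E12 cluster cell 2. In FL HSC this mean rested on Afp, detected in 2 of 26 cells, while Apoa2 was detected in 0. The hepatocyte genes Alb, Ttr, Hnf4a and Fgb were detected in no cell of any population. Leaving out any 1 of these cells turned no median difference of the proteasome genes, and leaving them out together was not tested.

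The proteasome genes were highest in the E10 cluster and lowest in FL HSC. The mean log2 value of the 40 genes in a cell had a median of 9.06 in EC, with a range of 6.81 to 11.82, and of 10.01 in HEC, with a range of 8.35 to 12.19. It had a median of 11.43 in the E10 cluster, from 9.50 to 13.62, then 10.10 in the E12 cluster, from 5.77 to 12.62. In FL HSC the median was 8.47, with a range of 6.34 to 9.62. Thus 24 of 26 FL HSC lay below every E10 cluster cell, while EC and HEC overlapped and the E12 cluster overlapped both its neighbours, with 3 E10 cluster cells above all of its cells. The means were 8.83 ± 1.74 (SD, n = 7), 10.17 ± 1.21 (n = 7), 11.58 ± 0.89 (n = 28), 9.98 ± 1.81 (n = 16) and 8.37 ± 0.84 (n = 26). In that order of levels, HEC and the E12 cluster, and EC and FL HSC, differed by less than their spread over cells. The number of the 40 genes above background in a cell followed the same order, with means of 31.1, 34.0, 38.1, 33.6 and 29.5. Psma2, Psmb1, Psmb4 and Psmc6 were above background in all 84 cells.

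**Figure D1:**
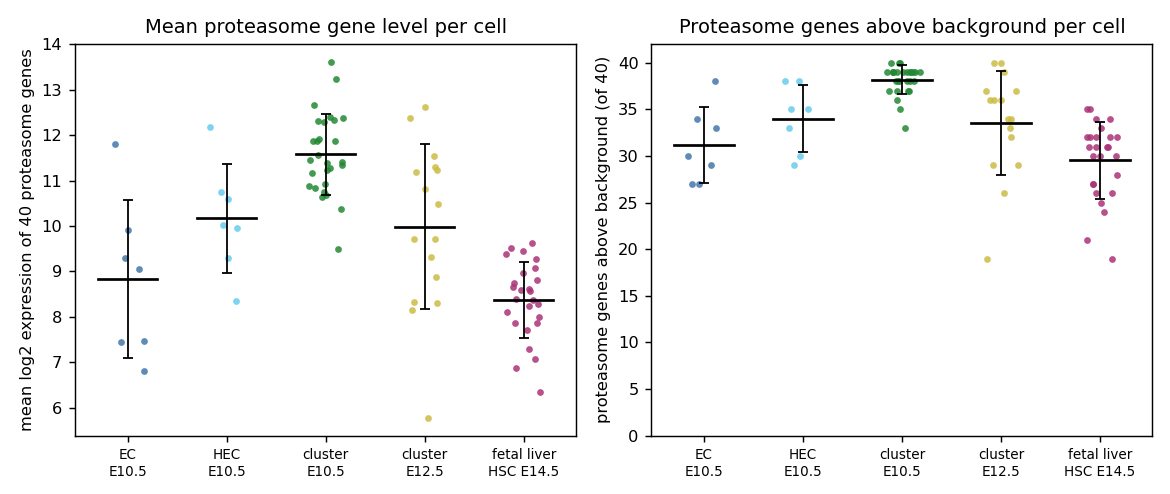
Each point is 1 cell; the left panel gives the mean log2 expression of the 40 measured proteasome genes, the right panel the number of them above background, and bars give the mean and SD over cells. The E10.5 cluster cells have the highest mean (11.58) and the fetal liver HSC the lowest (8.37), and the E12.5 cluster cells have the widest range (5.77 to 12.62).

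By gene, the highest of the 5 population means was that of the E10 cluster for 35 of 40 proteasome genes (87.5%), against 50.4% of all 10694 measured genes. HEC had the highest mean for 4 genes (10%, against 23%) and the E12 cluster for 1, Psme1 (2.5%, against 13%). The lowest mean was that of FL HSC for 29 of 40 genes (72.5%, against 22.2% of all measured genes). It was that of EC for 10 (25%, against 39.1%) and of HEC for 1 (2.5%, against 20.9%). These shares were not counted among genes detected in at least 50% of all cells. The proteasome genes are among the widely detected genes. In FL HSC 34 of the 40 (85%) were above background in at least 50% of cells, against 32.7% of measured genes, and in the E10 cluster it was 39 of 40 (97.5%) against 56.4%.

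**Figure D2:**
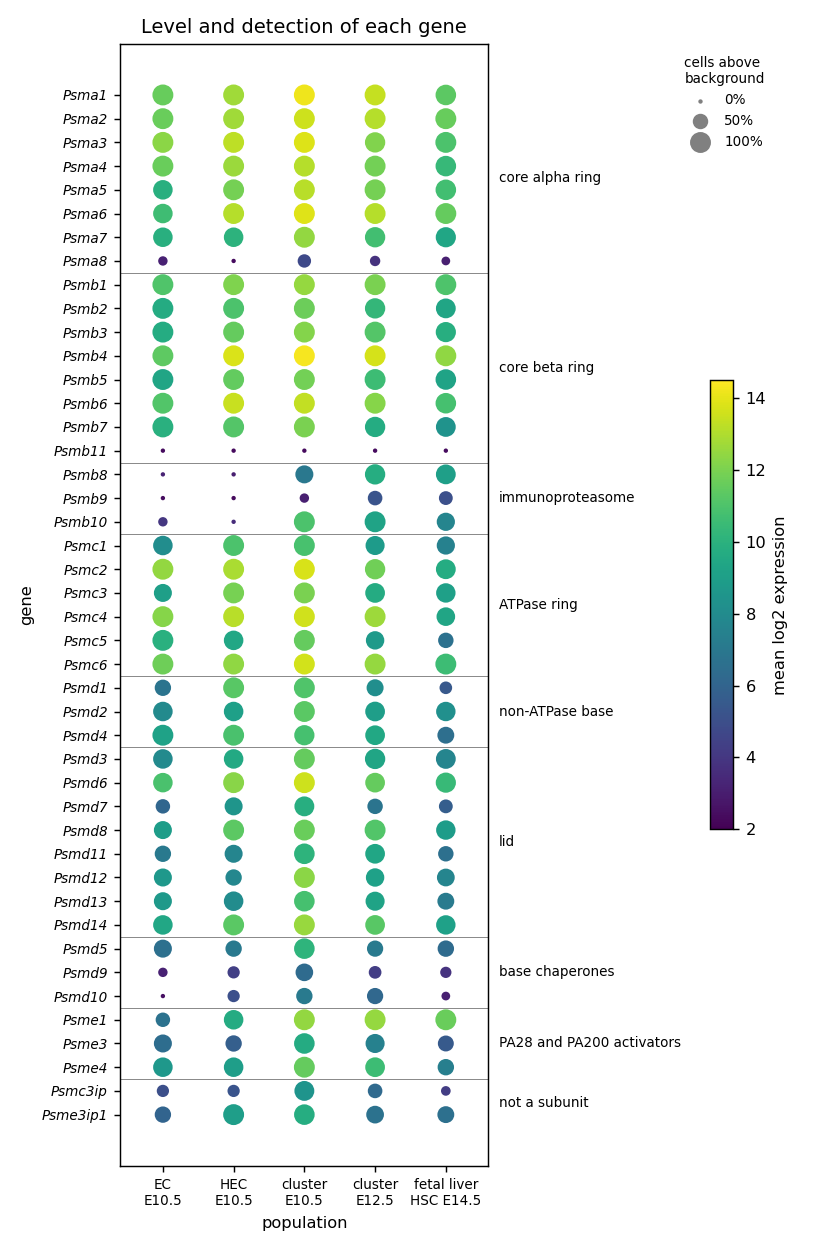
Rows are the 41 genes and the 3 immunoproteasome genes by role, columns are the 5 populations; the area of a dot gives the percentage of cells above background and its colour the mean log2 expression, which can be compared along a row but not between genes. The E10.5 cluster column has the highest mean for 35 of 40 measured proteasome genes, and Psmb11 has 0 cells above background in every column.

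For each pair of neighbouring populations the difference of mean log2 values was taken per gene, and a gene was called at a difference of 1 log2 unit or more, a ratio of 2 between geometric means. From EC to HEC, 25 of 40 proteasome genes were called higher and 0 lower, where 45.9% of all measured genes were called higher and 7.36% lower. The median difference of the 40 genes was 1.20, against 0.82 for all measured genes. Of the 4654 genes that at least 50% of all cells had above background, 62.5% were called higher and 6.12% lower. The 36 proteasome genes among them had 23 called higher and 0 lower, a share near that background, and their median was 1.26 against 1.53 for all widely detected genes. From HEC to the E10 cluster, 21 were called higher and 0 lower (background 43.1% and 15.7%), with medians of 1.26 and 0.71. Of the 36 widely detected proteasome genes 17 were called higher and 0 lower, beside 59.1% and 8.4% of all such genes, with medians of 0.84 and 1.44. At both steps the proteasome median was thus above that of all measured genes and below that of widely detected genes.

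After the E10 cluster the direction turned. In the E12 cluster 28 of 40 genes were called lower than in the E10 cluster and 0 higher, where 39.9% of all measured genes were called lower and 5.47% higher, and the medians were -1.38 for the proteasome genes and -0.66 for all. In FL HSC 31 of 40 were called lower than in the E12 cluster and 0 higher (36.9% and 7.91% of all), with medians of -1.42 and -0.53. Set directly against the E10 cluster, FL HSC had 39 of 40 genes called lower and 0 higher (55.5% and 5.01% of all), with medians of -3.11 and -1.29. These 3 comparisons share cells, so they are not separate evidence of a direction. Restricted to the widely detected genes, 26 of 36 proteasome genes were called lower in the E12 cluster than in the E10 cluster (61% of all such genes lower, 2.71% higher, medians -1.38 and -1.30) and 29 of 36 in FL HSC than in the E12 cluster (56.1% lower, 5.84% higher, medians -1.42 and -1.20). Between the E10 cluster and FL HSC it was 35 of 36, beside 84.6% lower and 2.08% higher, with medians of -3.11 for the proteasome genes and -2.58 for all widely detected genes. Called shares were thus high among widely detected genes as a whole.

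**Figure D3:**
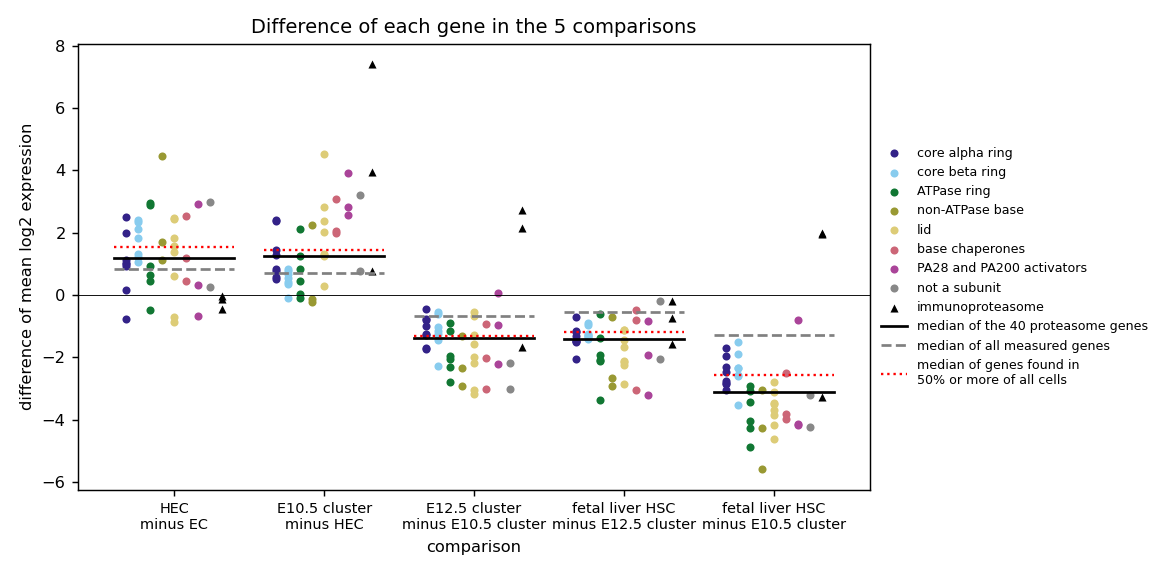
Each point is the difference of mean log2 expression of 1 gene in 1 of the 5 comparisons, coloured by role; lines give the medians of the 40 proteasome genes, of all measured genes, and of genes above background in 50% or more of all cells. The proteasome medians run from 1.20 and 1.26 in the first comparisons to -3.11 between fetal liver HSC and the E10.5 cluster.

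How far these differences depended on array detection and scaling was measured. Within populations, the mean proteasome level of a cell and the number of probe sets above background on its array had a Pearson r of 0.88 in EC, 0.91 in HEC (7 cells each), 0.71 in the E10 cluster (28), 0.97 in the E12 cluster (16) and 0.54 in FL HSC (26), a description in which both values come from the same array. When only cells inside the range of detection that both populations share were used, the E12 cluster minus E10 cluster median was 0.18 (7 and 26 cells, 3 genes lower and 1 higher, beside 15.1% and 21% of all measured genes), so the lower level in the E12 cluster was not seen there. The FL HSC minus E12 cluster median kept its sign at -0.92 (26 and 9 cells, 15 genes lower and 2 higher, beside 25.3% and 15.4%). The other comparisons had few cells in the shared range: HEC minus EC was -0.98 with 6 and 2 cells, E10 cluster minus HEC was -1.44 with 5 and 1, and FL HSC minus E10 cluster was -1.33 with 1 and 3. The 2 EC were cells 1 and 3, and cell 3, with germ cell genes, had the highest proteasome mean of the EC (11.82). The 1 HEC beside the E10 cluster was cell 3, the highest of the HEC (12.19). These values therefore rest on unusual cells.

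Shifting the arrays to an equal median of the signals above background left HEC minus EC at 0.22, with 13 genes higher and 5 lower (26.6% and 30.7% of all measured genes). Quantile normalization left it at 0.05, with 8 higher and 7 lower (25.5% and 21.6%). The higher level in HEC than in EC was thus seen with the deposited scaling and not with these. The other 4 medians kept their sign under both scalings, and quantile normalization brought them to 0.76, -0.81, -0.47 and -1.53. A lone cell also mattered in the smallest groups: HEC minus EC was 0.92 without EC cell 4, 0.94 without HEC cell 3 and 1.69 without EC cell 3, the cell with germ cell genes. E10 cluster minus HEC was 0.78 without HEC cell 4 and 0.94 without HEC cell 5. Without all 6 cells that went against their gate, the 3 later comparisons were -1.26, -1.54 and -3.20.

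**Figure D4:**
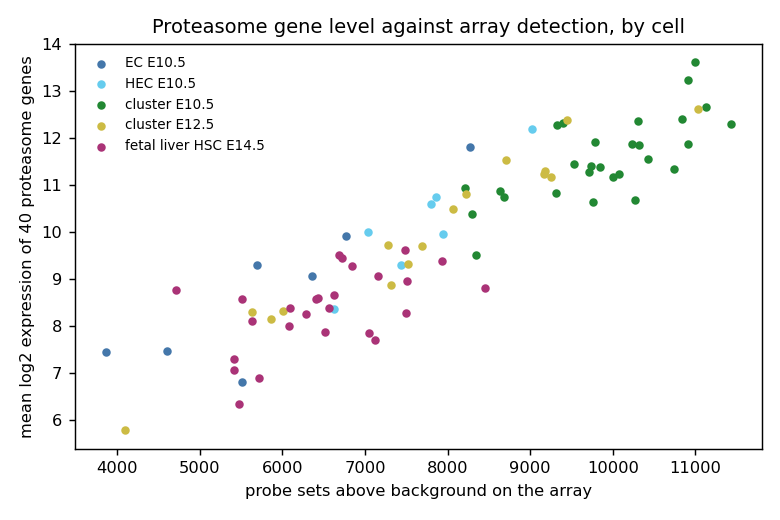
Each point is 1 cell, with the number of probe sets above background on its array on the horizontal axis and the mean log2 expression of the 40 proteasome genes on the vertical axis, coloured by population. Proteasome levels are higher in cells with more probe sets above background in every population, most closely in the E12.5 cluster (r = 0.97) and least in fetal liver HSC (r = 0.54).

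Cell cycle genes were also highest in the E10 cluster and lowest in FL HSC. The mean log2 value of 16 S phase genes was 8.70 in EC, 8.84 in HEC, 11.97 in the E10 cluster, 8.92 in the E12 cluster and 7.88 in FL HSC, and that of 17 genes of G2 and mitosis was 6.29, 7.09, 9.58, 8.75 and 4.82. Across cells within a population, the S phase mean and the proteasome mean had a Pearson r of 0.82, 0.22, 0.76, 0.92 and 0.44 in the same order, and that of the genes of G2 and mitosis had -0.22, 0.55, 0.52, 0.73 and 0.26. The part of the cell cycle genes in the proteasome differences was not tested.

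The alpha ring genes Psma1 to Psma7, which encode the outer rings of the core, were lower by 1.95 to 3.05 in FL HSC than in the E10 cluster, and all 7 were called, beside 55.5% of all measured and 84.6% of widely detected genes. From HEC to the E10 cluster Psma7 differed most among them, at 2.42, and from EC to HEC Psma6, at 2.49. Psma8, which encodes an alpha subunit of the testis proteasome, was above background in 10 of 28 E10 cluster cells, 3 of 16 E12 cluster cells, 3 of 26 FL HSC and 1 of 7 EC, and in 0 of 7 HEC. Its highest value in the E10 cluster was 10.75 while the median cell was at 2.31, so it was present in a minority of cells.

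The beta ring genes Psmb1 to Psmb7 line the catalytic chamber. All 7 were called higher in HEC than in EC, by 1.05 to 2.39, beside 45.9% of all measured and 62.5% of widely detected genes. None of the 7 was called between HEC and the E10 cluster, where their differences ran from -0.08 to 0.83 and 43.1% of all measured genes were called higher. All 7 were called lower in FL HSC than in the E10 cluster, at -1.51 to -3.54, again beside 55.5% and 84.6%.

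Among them, Psmb5, Psmb6 and Psmb7 carry the chymotrypsin-like, caspase-like and trypsin-like sites. Psmb5 ran from 5.01 to 12.95 (median 9.53) in EC, 10.17 to 13.17 (11.48) in HEC, 8.93 to 13.81 (11.68) in the E10 cluster, 7.24 to 13.03 (10.80) in the E12 cluster and 3.98 to 11.65 (9.45) in FL HSC. Every population overlapped the next, and the means differed by 2.13 for HEC minus EC, by 0.34 for E10 cluster minus HEC and by -2.60 for FL HSC minus E10 cluster. Psmb6 had medians of 11.57, 13.23, 13.53, 12.82 and 11.36 in the same order, and 1 FL HSC had it at 2.37, below background. Its differences were 2.33, -0.08, -1.15 and -1.40 at the successive steps. Psmb7 ran from 10.16 to 14.10 in the E10 cluster and from 2.36 to 11.48 in FL HSC, where 3 of 26 cells had it below background. It was lower by 3.54 in FL HSC than in the E10 cluster, with medians of 9.14 and 12.01. In the cells of the shared detection range (6 and 2) the higher values in HEC than in EC were turned. The differences there were -0.60 for Psmb5, -0.62 for Psmb6 and -0.27 for Psmb7, with EC cell 3 as 1 of the 2 EC. Under quantile normalization the HEC minus EC difference of Psmb7 was -0.028. For E12 cluster minus E10 cluster, Psmb6 was at 0.22 and Psmb7 at 0.052 in the shared range, and Psmb7 was at 0.021 for FL HSC minus E12 cluster.

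The ATPase ring, Psmc1 to Psmc6, unfolds substrates and threads them into the core. All 6 genes were called lower in FL HSC than in the E10 cluster, at -2.91 to -4.89, beside the same 55.5% and 84.6%. Psmc5 ran from 8.01 to 13.77 (median 11.57) in the E10 cluster and from 3.44 to 11.09 (5.08) in FL HSC, where 13 of 26 cells had it above background against 28 of 28. The difference of means was -4.89, and the groups overlapped. Psmc4 was above background in all 16 E12 cluster cells, from 9.36 to 14.76, and in 20 of 26 FL HSC, from 2.34 to 13.88. Its means differed by -3.36, and the 20 FL HSC that had it averaged 11.30 against 12.69 in the E12 cluster. Psmc3 ran from 3.99 to 13.74 in EC, 5 of 7 above background, and from 10.69 to 12.60 in HEC, all above background, with a difference of 2.94.

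In the rest of the base, Psmd1 and Psmd2 are the large scaffold subunits and Psmd4 is a ubiquitin receptor. Psmd1 had the largest difference from EC to HEC. It ran from 4.10 to 9.52 (median 8.30) in EC and from 10.29 to 12.49 (10.94) in HEC, so that every HEC was above every EC, and its means differed by 4.45. It was the single case without overlap among the proteasome genes examined by cell. The share of all measured genes without overlap was not counted, so the separation cannot be read as particular to Psmd1. Of all measured genes 45.9% were called higher in this comparison. Under quantile normalization the Psmd1 difference was 1.72. In the E10 cluster Psmd1 ran from 5.06 to 14.11 (median 11.45) and was above background in all 28 cells. In FL HSC it was above background in 8 of 26 cells, with a median of 4.23 and a highest value of 11.72. The difference of -5.59 from the E10 cluster to FL HSC was the largest of the 40 genes in that comparison.

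The lid holds the deubiquitinase Psmd14 and its scaffold. Of the 8 lid genes, 7 were called higher in the E10 cluster than in HEC, at a median of 1.67, beside 43.1% of all measured and 59.1% of widely detected genes. All 8 were called lower in FL HSC than in the E10 cluster, with a median of -3.60, beside 55.5% and 84.6%. Psmd12, a lid scaffold subunit, was detected in 5 of 7 EC, in 4 of 7 HEC, in 28 of 28 E10 cluster cells, 12 of 16 E12 cluster cells and 18 of 26 FL HSC. Its means were 8.67, 7.80, 12.30, 9.12 and 7.68, so it differed by 4.51 from HEC to the E10 cluster and by -3.19 and -1.44 at the next steps. In cells that had it above background the means were 10.88, 11.70, 12.30, 11.34 and 9.78, so that HEC and the E10 cluster lay close among cells that had it. In the shared detection range it was at -1.18 from HEC to the E10 cluster (5 and 1 cells). Psmd7, the partner of Psmd14, was above background in 25 of 28 E10 cluster cells and 8 of 16 E12 cluster cells, with medians of 10.75 and 4.59 and a difference of means of -3.05. In the shared detection range it was at 0.86.

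The base chaperones Psmd5, Psmd9 and Psmd10 help assemble the ATPase ring and are not part of the finished particle. Psmd5 was above background in 27 of 28 E10 cluster cells, with a median of 10.36, and in 9 of 16 E12 cluster cells, with a median of 8.52, and its means differed by -3.02. In the shared detection range the difference was 0.90. Psmd10 was above background in 9 of 16 E12 cluster cells and 3 of 26 FL HSC, with a difference of -3.06, and in 0 of 7 EC. Psme3ip1 and Psmc3ip, which encode no subunit, had their largest positive differences at separate steps. Psme3ip1 was at 5.99 in EC and 8.97 in HEC, a difference of 2.98 that was -0.97 in the shared detection range, and Psmc3ip was detected in 2 of 7 HEC and in 25 of 28 E10 cluster cells, a difference of 3.22.

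Core and regulatory genes were then set side by side, a grouping made after the values were seen. The 14 core genes Psma1 to Psma7 and Psmb1 to Psmb7 had a median difference of -2.51 from the E10 cluster to FL HSC, and the 17 genes of the ATPase ring, base and lid had -3.70. The medians were -1.20 and -1.99 from the E10 to the E12 cluster, and -1.32 and -2.10 from the E12 cluster to FL HSC. Taken cell by cell, the regulatory mean minus the core mean was -1.19 ± 0.61 (SD, n = 28) in the E10 cluster, -1.92 ± 0.99 (n = 16) in the E12 cluster and -2.50 ± 1.01 (n = 26) in FL HSC. In 12 of 26 FL HSC it lay below every E10 cluster cell. When only values above background were averaged, the E10 cluster to FL HSC medians were -2.27 and -2.30, so no gap was left among the values above background. In the shared detection range of the 2 clusters the medians were 0.21 and 0.15.

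The activators were all 3 called higher in the E10 cluster than in HEC, beside 43.1% of all measured and 59.1% of widely detected genes. After that the activators differed from each other. PA28 in the cytoplasm is built from Psme1 and Psme2, the nuclear PA28 from Psme3, and PA200 is the product of Psme4. Psme1 ran from 2.43 to 14.31 (median 4.56) in EC, 2.84 to 12.02 (10.75) in HEC, 10.57 to 14.25 (12.47) in the E10 cluster, 10.53 to 13.68 (12.70) in the E12 cluster and 9.44 to 13.44 (12.05) in FL HSC. It passed background in 3 of the EC and 6 of the HEC, and in every cell of the 3 later populations, whose values overlapped. The differences were 2.93 and 2.81 up to the E10 cluster, then 0.05 and -0.85. Its HEC minus EC difference was 4.20 without EC cell 3 and -0.69 over the cells above background. It was -2.96 in the shared detection range (6 and 2 cells), where EC cell 3 was 1 of the 2 EC.

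Psme1 was the 1 gene of the 40 not called lower in FL HSC than in the E10 cluster, at -0.80, which was 0.71 under quantile normalization. Psme3 ran from 2.76 to 13.04 (median 9.66) in the E10 cluster and from 2.71 to 9.52 (5.19) in FL HSC, and was above background in 27 of 28 and 14 of 26 cells. Its means differed by -4.14 in that comparison and by 3.92 from HEC to the E10 cluster, where it was at -2.27 in the shared detection range (5 and 1 cells). Psme4 was above background in 14 of 16 E12 cluster cells and 15 of 26 FL HSC, with medians of 11.47 and 8.44 and a difference of -3.19. It was higher by 2.55 in the E10 cluster than in HEC on the probe set used, and another probe set ran against this.

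Psme1 is an interferon-responsive gene, as are the immunoproteasome genes, which were read beside it as a contrast chosen after the values were seen. Psmb8, Psmb9 and Psmb10 encode the subunits that replace those of Psmb5, Psmb6 and Psmb7 in the immunoproteasome. Psmb10 was at 2.75 to 4.36 in HEC, with 0 of 7 cells above background, and at 5.27 to 13.70 (median 11.17) in the E10 cluster, with 28 of 28. The groups did not overlap. The share of all measured genes without overlap was not counted, so the separation cannot be read as particular to Psmb10. Of all measured genes 43.1% were called higher in this comparison. Since every HEC lay under the background threshold, only a bound can be given: the E10 cluster mean of 10.94 lay 5.94 log2 units above the threshold, and the difference is at least that. It was lower in FL HSC than in the E10 cluster, by -3.26.

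Psmb8 was detected in no EC or HEC (0 of 7 each), in 20 of 28 E10 cluster cells, 15 of 16 E12 cluster cells and 23 of 26 FL HSC, with medians of 3.05, 2.91, 7.71, 9.70 and 10.00. It was higher by 2.72 in the E12 cluster than in the E10 cluster and higher by 1.98 in FL HSC than in the E10 cluster. Psmb9 was above background in 0, 0, 4, 7 and 10 cells of the 5 populations and was higher by 2.13 and 1.95 in the same 2 comparisons. Of all measured genes, 5.47% were called higher and 39.9% lower from the E10 to the E12 cluster. Between the E10 cluster and FL HSC it was 5.01% higher and 55.5% lower. Their counterparts Psmb5 and Psmb6 differed by -1.25 and -1.15 from the E10 to the E12 cluster. In the remaining pair both genes were lower there, Psmb10 at -1.67 and Psmb7 at -2.28, so the immunoproteasome genes did not move as a group. Psmb8 minus its E10 cluster mean stayed between 1.62 and 3.96 for the E12 cluster and between 1.21 and 4.04 for FL HSC under all alternatives. In the shared detection range it was 3.16 for the E12 cluster (7 and 26 cells) and 3.18 for FL HSC, the latter from 1 and 3 cells. Without the 6 cells that went against their gate, the 3 with C1qb among them, the E12 cluster difference was 2.61.

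**Figure D5:**
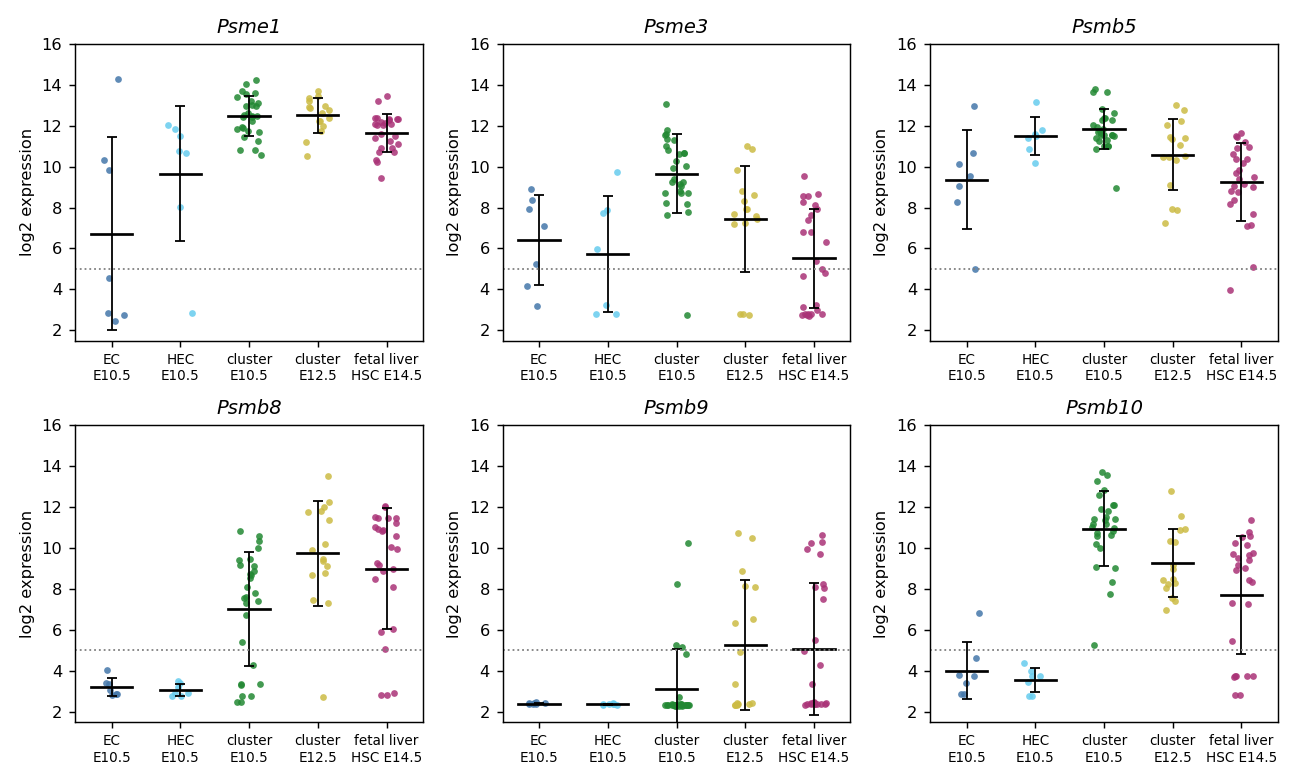
Log2 expression of 6 genes in each cell, by population, with the mean and SD over cells; the dotted line marks the background threshold of 5. Psme1 is above background in every cell of the 3 later populations, Psmb8 and Psmb10 are above background in 0 of 7 HEC, and Psmb5 and Psme3 are lower in fetal liver HSC than in the E10.5 cluster.

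Genes that work with the proteasome were read from 3 lists. Of 13 genes for assembly and bound cofactors, 9 were called higher and 1 lower from EC to HEC (45.9% and 7.36% of all measured genes). From HEC to the E10 cluster 10 were called higher (43.1%). In FL HSC 13 of 13 were called lower than in the E10 cluster, beside 55.5% of all measured and 84.6% of widely detected genes. Psmg1 and Psmg2, the chaperone pair that starts the alpha ring, differed by -4.06 and -5.15 in this last comparison. Pomp, the maturation factor of the beta rings, differed by -3.06. Of 10 genes of the ubiquitin and shuttle list, 10 were called lower in that comparison, beside the same 55.5% and 84.6%. Their median was -3.07, close to the -3.11 of the proteasome genes. Rad23b, a shuttle factor, differed by -5.64. Of 8 transcription factor genes known to act on proteasome promoters, 5 were called lower and 0 higher, a share near the 55.5% of all measured genes. Nfe2l1, the factor that raises proteasome gene transcription when the proteasome is inhibited, had means of 6.73, 8.80, 8.78, 8.32 and 6.27 in the 5 populations.

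Because most of the genes moved together, the 250 bases upstream of their RefSeq start sites (GRCm38.p6) were read for motifs on both strands, 3 of which are given here, chosen after the expression values were seen. The table held 37 windows for 34 of the 41 genes and 32851 windows in all. The core of the antioxidant response element, TGACNNNGC, which Nfe2l1 and Nfe2l2 bind with small Maf proteins, was in 5 of 37 windows (13.5%), against 10.2% of all windows. These 5 are shown because the catalytic genes Psmb5 and Psmb6 and Psmd12, the lid gene with the largest difference between FL HSC and the E10 cluster, are among them, with the motif or its reverse complement in capitals.
Psmb5, chr14:54618014-54618062, minus strand: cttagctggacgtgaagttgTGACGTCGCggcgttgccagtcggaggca
Psmb6, chr11:70525328-70525356, plus strand: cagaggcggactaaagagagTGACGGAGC
Psmc6, chr14:45329577-45329625, plus strand: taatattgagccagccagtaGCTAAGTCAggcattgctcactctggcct
Psmd9, chr5:123228139-123228187, plus strand: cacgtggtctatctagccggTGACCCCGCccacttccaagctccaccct
Psmd12, chr11:107479278-107479309, plus strand: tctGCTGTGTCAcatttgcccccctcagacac

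The CCAAT box, bound by NF-Y, was in 15 of 37 windows (40.5%), against 33.8% of all windows. It is shown for 1 gene of each ring of the core, with the box in capitals.
Psma1, chr7:114276190-114276234, minus strand: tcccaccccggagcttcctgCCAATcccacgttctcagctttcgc
Psmb3, chr11:97703371-97703415, plus strand: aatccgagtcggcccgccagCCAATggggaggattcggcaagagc

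The interferon element, searched as a pair of GAAA runs with 2 bases between them, was in 3 of 37 windows (8.11%, against 2.98%), those of Psmb3, Psmd4 and Psmd9. It was not found for the interferon-responsive genes Psme1, Psmb8, Psmb9 and Psmb10, as far as a window was available for them. These matches describe the letters of the windows, and binding was not measured here.

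Other probe sets were available for some genes. The 41 genes had 87 probe sets, and 29 probe sets other than the brightest were above background in at least 3 cells, from 19 genes. In 8 cases, in 6 genes, such a probe set differed by 1 log2 unit or more against the sign of the one used. From EC to HEC these were a probe set of Psma1 (-2.01, against 1.13 on the one used), a pair for Psmc6 (-2.96 and -4.13, against 0.65), and probe sets of Psmd11 (-1.33, against 0.62) and Psme3 (1.58, against -0.68). From HEC to the E10 cluster they were probe sets of Psma6 (-2.45, against 0.78) and Psme4 (-1.14, against 2.55), and from the E12 cluster to FL HSC it was Psmd11 (1.40, against -2.84). The direction of these genes at these steps thus depended on the probe set. When all probe sets of a gene were averaged, the median difference from the E10 cluster to FL HSC was -2.68, with 37 of 40 genes called lower, beside 45.5% of all measured genes.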

How the data were processed

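Each of 85 arrays held 1 cell, lysed after sorting and amplified as cDNA. Deposited values were log2 signals. The submitters' processing notes name GCRMA and the affy package, and give no version here. GCRMA sets undetected probe sets near a floor, so differences of rarely detected genes mix level with the share of cells. The 45101 probe sets ran from 2.19 to 17.86. 34958 had 1 gene symbol, 932 several and 9211 none listed. Control probe sets were left out, the brightest probe set stood for a gene, and genes above 5 in at least 3 cells were kept. Differences of population means were computed in Python 3.11.15 with pandas 2.3.3 and called at 1 log2 unit. Named by cell were Psmb5, Psmb6, Psmb7, Psmb11 and, per comparison and direction, the 3 largest called differences of genes detected in 50% or more of the higher population's cells. Psme1, Psma8 and the immunoproteasome genes were chosen after their values were seen. Genes and lists were chosen with earlier results of these data known. Alternatives were other scalings, filters, probe sets, thresholds and subsets of cells. Of the promoter motifs searched, 1 is not reported here.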

Additional observations from a re-analysis of the deposited data

Results flagged for a closer look

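Of 58 sets of 7 cells examined, 4 had a cell that stood apart from the rest. A chance rate of about 1 in 20 may not apply here, because the sets share cells and undetected values lie near a floor. Psma8 was at 7.91 in EC cell 1, with the next EC at 2.42. Psmb7 was at 12.74 in EC cell 3, the cell with germ cell genes, with the next at 10.18. Psmd10 was at 3.06 in EC cell 3 with the next at 2.46, and Psma8 was at 2.69 in HEC cell 4 with the next at 2.34; these last values are all below background.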

How the results depend on the processing

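No paired analysis was possible because the replicate numbers only name cells. The median over the proteasome genes turned direction in the cells of the shared detection range for HEC minus EC (-0.98), E10 cluster minus HEC (-1.44) and E12 cluster minus E10 cluster (0.18), and FL HSC minus E10 cluster moved to -1.33 there, to -1.53 under quantile normalization and to -2.10 with values above background only, an alternative chosen after seeing the data. With the mean of all probe sets the mean level per cell was 8.48 in HEC, 9.71 in the E10 cluster and 7.05 in FL HSC. Among named genes, the shared detection range turned Psme3ip1 (-0.97), Psmb5 (-0.60), Psmb6 (-0.62), Psmb7 (-0.27) and Psme1 (-2.96) for HEC minus EC, Psmd12 (-1.18) and Psme3 (-2.27) for E10 cluster minus HEC, Psmd7 (0.86), Psmd5 (0.90), Psmb6 (0.22) and Psmb7 (0.052) for E12 cluster minus E10 cluster, and Psmb7 (0.021) for FL HSC minus E12 cluster. For HEC minus EC, quantile normalization turned Psmb7 (-0.028) and values above background only turned Psme1 (-0.69). In the shared detection range of HEC and EC, EC cell 3, with germ cell genes, was 1 of only 2 EC. The cause was not tested.

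With 1 cell left out, the medians ran from 0.92 to 1.69, 0.78 to 1.53, -1.59 to -1.09, -1.72 to -1.26 and -3.19 to -3.06 in the 5 comparisons, and mean levels from 8.33 to 9.17 in EC, 9.83 to 10.47 in HEC, 11.50 to 11.65 in the E10 cluster, 9.81 to 10.26 in the E12 cluster and 8.32 to 8.45 in FL HSC. Leaving out cluster cells and FL HSC in turn, and leaving out Psmc3ip and Psme3ip1, were also chosen after seeing the data. Low signal limits Psma8, Psmc3ip, Psmd9 and Psmd10, which were below background in most cells. For Psmc3ip, the E10 cluster minus HEC difference was 0.44 with values above background only.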
